A study of Arabidopsis thaliana with 28 samples.

Results

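Leaves of Arabidopsis thaliana Col-0 that were still developing were compared between 12 h and 4 h of treatment with low light at ambient CO2, to ask which transcripts continued, stopped or reversed a change already under way at 4 h. The comparison rests on 8 of the 28 arrays of the series, the 4 titled 12 h and the 4 titled 4 h, replicates 1 to 4 in each case, taken by title. One further array titled 4 h was left out because its treatment note carries the letters ES where the notes of the other developing arrays carry AS, and the labels define neither pair of letters. The leaves were insertions 19 to 21 on plants grown on compost in a growth room at normal atmosphere, 20 °C and 50% humidity, with a 10 h light period, as for every developing group. The arrays of developing leaves at 2 h and 24 h, with 4 replicates each, place the values in time, and those of 2 h also define the classes used below. The arrays of developing leaves at 48 h and 96 h and of mature leaves at 24 h enter the estimate of spread that all 7 groups share. They also enter the median signal used below to pick genes, and the filters and scalings of the alternatives. With the compared times alone, 4140 probe sets were called instead of the 4466 given below.

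Total RNA was labelled with biotin and hybridised to Affymetrix ATH1 arrays, on which each transcript is read by 1 or more sets of short probes. No array of untreated or brightly lit leaves is used here, and the hour of the day at which leaves were taken is not stated. Hours of treatment, hours of the day and leaf age therefore cannot be told apart in any value below. The sources used here do not establish whether the sampled leaves or other leaves of the plant were in low light. Whether replicates came from separate plants or pools is not stated, so the p-values measure the spread between these arrays, which may be partly technical.

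Arabidopsis leaf transcripts follow a daily programme set by light and by the circadian clock, a network of transcription factors that peak one after another from dawn to night. Genes of the light-harvesting antenna and of the photosystems are usually most abundant in the light. Genes for starch degradation usually peak towards the end of the day, when the leaf prepares to live on starch through the night. Prolonged shortage of sugar raises a further set of genes, among them those of amino acid breakdown and of autophagy, the process by which cells enclose and digest their own contents.

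The labelled tissue was checked first. The 5 of 9 leaf markers with a named probe set were all abundant, from LHCB4.2, at a signal of at least 638, to RCA, the activase of Rubisco, at 2372 to 3985 over the 8 arrays, and each had a mean at or above the 98.65th percentile of all probe sets. Their summed signal was 10010 to 11840 at 4 h and 7562 to 8595 at 12 h, a fall carried by photosynthesis genes that are themselves results below. CLV3, a marker of the shoot meristem and the single one of 19 markers of other tissues with a named probe set here, lay between 1.75 and 4.17. Array medians ran from 41.9 to 45.1. Of the summed signal, the 100 strongest probe sets took 9.38% to 11.6% on the 4 h arrays and 8.06% to 9.17% on those of 12 h, without overlap, with an exact two-sided permutation p of 0.0286, the smallest that 4 arrays against 4 allow, and 0.114 after adjustment over 4 array measures. The log2 ratio of 3′ to 5′ actin signal, a sign of RNA quality, was 1.74 to 3.05 at 4 h and 1.38 to 2.21 at 12 h, with an exact permutation p of 0.0857, or 0.171 after the same adjustment. The same ratio for GAPDH was 0.199 to 0.979 at 4 h and 0.176 to 0.931 at 12 h, with an exact permutation p of 0.886. The part of these array measures in the results was not tested.

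Between 4 h and 12 h, 4466 of 22746 probe sets changed, which is 19.6% of those tested, at an adjusted p under 0.05 in a linear model fitted to log2(signal + 10). Of these, 2425 (10.7%) were higher and 2041 (8.97%) lower at 12 h. Most changes were small, with a median log2 change of 0.53 among the rises and -0.56 among the falls, and the median over all probe sets was 0.0027. At least 2-fold changes numbered 453 (1.99%), as 209 rises (0.919%) and 244 falls (1.07%), of which 12 rises and 25 falls were at least 4-fold. In the preceding interval, 4 h against 2 h, 326 probe sets (1.43%) were called, 194 higher (0.853%) and 132 lower (0.58%). Counted once per named gene, 2302 of 13355 genes (17.2%) were called, of which 1302 (9.75%) were higher and 1000 (7.49%) lower at 12 h. In whole-leaf RNA, fewer cells of a type and less RNA in each cell cannot be told apart, and since every array is scaled to the same mean, a change of all transcripts together would not be seen.

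The largest rise of a named gene was that of COR27, cold regulated gene 27, whose product is known as a regulator of the clock and of flowering time. Its signal at 4 h was 1.81, 15.6, 11.6 and 14.3 in replicates 1 to 4, and at 12 h it was 446, 331, 386 and 388. The gene was thus near the bottom of the scale on every 4 h array and well above the array median on every 12 h array, a log2 rise of 4.31 ± 0.16 (SE, adjusted p = 1.8e-15). At 2 h it stood at 1.54 ± 0.544 (mean ± SD, n = 4), with arrays that overlapped those of 4 h, and at 24 h at 1.72 ± 0.4902, so of these times 12 h alone had a high level.

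PDF1.2b, a plant defensin, rose by 2.95 ± 0.78 (adjusted p = 0.0081) from 14.6, 137, 191 and 63.8 to 2316, 720.3, 349 and 304 in replicates 1 to 4. The groups did not overlap, but replicate 1 of 12 h was over 3 times as high as any other of the 8 arrays, and without replicate 1 of every group the adjusted p was 0.077. Its probes are marked by their name as able to bind related transcripts, so the signal may include close relatives of this gene. AT1G30260 went from 34.6, 46.1, 39.3 and 30.8 to 176, 170.2, 188 and 144, a rise of 1.92 ± 0.16 (adjusted p = 6e-09). All 4 values at 12 h were more than 3 times the highest at 4 h.

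The other rises among the 14 largest were of genes known here only by locus code. A lack of overlap between 4 h and 12 h and a mean above the median signal of 43.93 in the higher group were required of the 14 rises and the 14 falls, so neither is a finding. AT1G78020 went from 96.7, 98.8, 77 and 83.9 to 493, 495, 434 and 414 (log2 change 2.24, adjusted p = 3.3e-12) and AT4G33980 from 3.07, 1.802, 0.966 and 9.28 to 71.6, 50.9, 84.4 and 51.3 (2.45, adjusted p = 6.8e-10). In neither gene did a 4 h array come near a 12 h array. AT3G60420 rose by 3.32 (adjusted p = 4e-06), with 255, 342, 239.9 and 262 at 12 h after 3.58, 7.28, 90.7 and 16.9 at 4 h, where replicate 3 stood above the rest, and a second, weaker probe set for this gene changed by -0.10 (adjusted p = 0.70). For AT3G16530, AT3G06210, AT3G19030, AT5G59670, AT4G37560, AT2G15830 and AT5G44580 the log2 rise lay between 1.55 and 2.29, and for AT2G23910, described below, it was 1.67. Probe sets with no gene name here included the largest rise of all, from 6.81 ± 7.14 to 795 ± 149.8, a change of 5.65, and another from 41.4 ± 9.795 to 752 ± 30.5, a change of 3.91 on the log2 scale.

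GI, or GIGANTEA, a clock protein of the late day that controls flowering time and clock pace, had the largest fall of a named gene. Its signal at 4 h was 189, 173, 172 and 172 in replicates 1 to 4, and at 12 h it was 13.8, 13.2, 8.49 and 9.65. Every 12 h array was below every other array of 2 h and 4 h, and the log2 change was -3.14 ± 0.12 (adjusted p = 2.8e-15). The gene had risen between 2 h, at 69.3 ± 5.998, and 4 h.

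CYP71B26, a cytochrome P450 enzyme, fell from 217, 266, 221 and 192 at 4 h to 14.3, 23.5, 24.5 and 35.9 at 12 h, a log2 change of -2.79 ± 0.14 (adjusted p = 6.3e-13). Its mean at 2 h, 233 ± 24.9, was close to that of 4 h (log2 change -0.05, adjusted p = 0.97). LHCB4.2, an isoform of the minor antenna protein CP29 of photosystem II, went from 2539, 2454, 2531 and 2316 to 767, 679.8, 663 and 638, a change of -1.83 ± 0.15 (adjusted p = 2.6e-09), and at 24 h stood at 2953 ± 606. Its 12 h arrays lay between 638 and 767 with little spread. MSRB6, a methionine sulfoxide reductase, which repairs oxidised methionine, went from 293, 269.9, 359 and 211 to 90.1, 107, 53.3 and 50.4 (log2 change -1.82, adjusted p = 1.5e-07).

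AT3G21670, listed as NPF6.4 of the nitrate and peptide transporter family, had a log2 change of -2.55 ± 0.13 (adjusted p = 2.7e-13), from 236, 227, 249 and 202 to 34, 44.4, 17.8 and 30.9. The remaining falls among the 14 largest were of genes known here by locus code. AT5G12110 went from 177, 163, 149 and 109 to 20.7, 27.7, 11.2 and 10.09 and stood at 707 ± 46.4 at 24 h, the highest of its means at 2, 4, 12 and 24 h. AT3G44450 went from 157, 140.3, 142 and 147 to 33.2, 32.1, 31.9 and 32.7, with 12 h values all within 2 units of each other. The others, AT1G13650, AT1G73480, AT3G01060, AT3G28220, AT1G21500, AT5G62210 and AT5G57345, had log2 changes from -2.32 to -1.63. Among probe sets with no gene name here, one fell from 1617 ± 256 to 25.5 ± 12.6, a log2 change of -5.59, and another from 296 ± 35.7 to 10.6 ± 9.1, a change of -4.0.

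**Figure D1:**
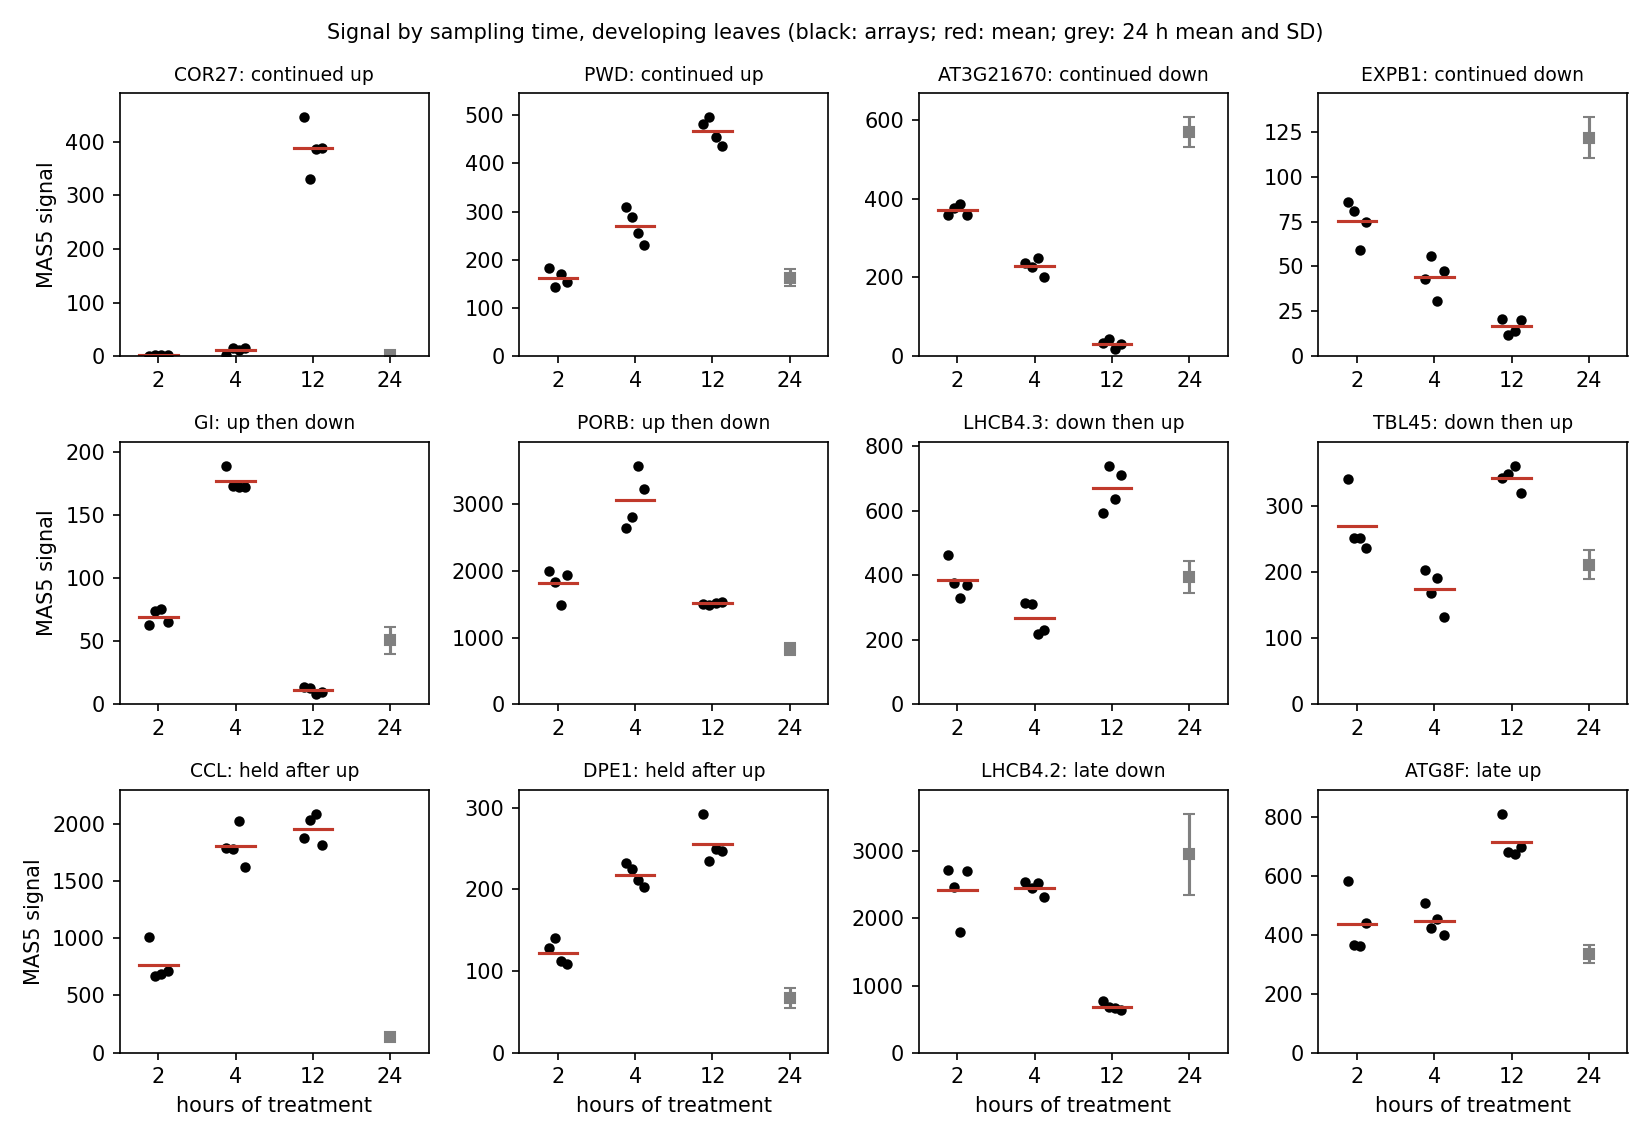
MAS5 signal (vertical axes, linear, from 0) against hours of treatment in developing leaves for 12 genes, a pair each for continued up, continued down, up then down, down then up and held, and 1 each for late down and late up. Black points are the 4 arrays of 2, 4 and 12 h, red lines their means, and grey squares the 24 h mean with its SD (n = 4). In the panel of GI the 4 h arrays lie between 172.2 and 189 and the 12 h arrays between 8.49 and 13.8, and in that of COR27 the 12 h arrays, from 331 to 446, stand far above all others.

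To see what became of changes made before 4 h, the 326 probe sets called at 4 h against 2 h were sorted by their change from 4 h to 12 h. Both contrasts use the same 4 h arrays, so an error in those arrays moves the first change one way and the second the other way, and the counts are given as a description. Of the 326, 131 (40.2%) continued in the same direction, 44 (13.5%) reversed, 115 (35.3%) stopped and 36 (11%) could not be resolved. Stopped, or held, means that the second change was not called and its 95% interval lay within 1.5-fold either way, and unresolved means that this interval was wider. Of the 4466 probe sets called at 12 h against 4 h, 3602 (80.7%) were late, with a first change that was not called and whose interval lay within 1.5-fold, and another 689 (15.4%) were not called at 4 h but had a wider interval. The background for the continued and reversed counts is that 19.6% of all probe sets were called between 4 h and 12 h. For the late counts it is that only 1.43% of all probe sets were called at 4 h against 2 h, so most calls would be late in any case. The share of all probe sets with an interval within 1.5-fold was not counted, so nothing is read from the stopped and late shares.

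**Figure D2:**
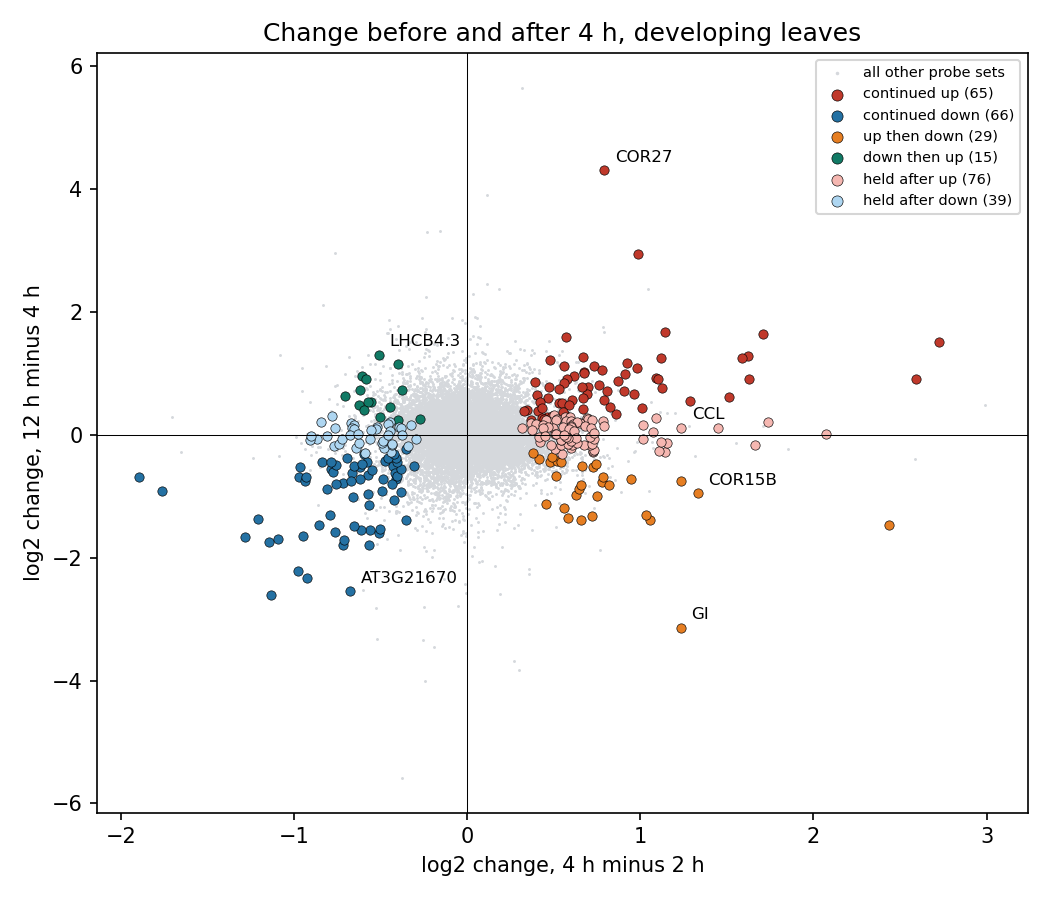
Log2 change from 4 h to 12 h (vertical axis) against log2 change from 2 h to 4 h (horizontal axis) for all 22746 probe sets, each a point, with the classes in colour and their numbers of probe sets in the legend. Both axes share the 4 h arrays, which pushes points towards the upper left and lower right. COR27 lies at the top of the coloured points with a second change of 4.31 and GI at their bottom with -3.14.

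The 65 probe sets that continued up, 31 of them with a single named gene, had median log2 changes of 0.67 to 4 h and 0.76 from 4 h to 12 h. Their median change of 1.49 between 2 h and 12 h follows from the sorting. COR27 was in this class, but its 2 h and 4 h arrays overlapped and lay near the bottom of the scale. The class also held PWD, the phosphoglucan water dikinase that phosphorylates starch for its breakdown. PWD stood at 182, 143, 171 and 155 at 2 h, 309.6, 289, 255 and 231 at 4 h, then 482, 495, 455 and 435 at 12 h. None of these 3 sets of values overlapped, with log2 changes of 0.70 (adjusted p = 2.9e-05) and then 0.77 (adjusted p = 7.8e-07). THIC, the enzyme that makes the pyrimidine part of vitamin B1, went from 252 ± 24.98 through 393 ± 44.97 to 771 ± 25.8. Its second change was 0.96 (adjusted p = 4.1e-07).

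A pair of serine carboxypeptidase-like genes, of a family of secreted or vacuolar hydrolases and acyltransferases, continued up in parallel. SCPL49 stood at 180.4, 199, 181 and 179 at 2 h, 318, 362, 359 and 402 at 4 h, then 755, 845, 859 and 834 at 12 h, with changes of 0.93 and 1.17. The related scpl35 had means of 243 ± 20.9, 455 ± 67.1 and 836 ± 70.5, with changes of 0.87 and 0.87. In both, each step came close to a doubling of the signal.

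The other leaders of this class carry locus codes. AT2G23910 rose from 0.906, 3.62, 1.28 and 8.18 at 2 h through 16.5, 21.8, 19.8 and 18.6 to 76.9, 96.3, 79.5 and 78.1 at 12 h, AT4G27130 from 176, 199, 168 and 168 through 316, 281, 259 and 299 to 739, 653, 668 and 756, and AT1G26665 from 49.9, 61.6, 58.1 and 51.01 through 178, 98.98, 119 and 139 to 346, 315, 274 and 365. A lack of overlap between neighbouring times was required of these 3 genes, so it is not a finding. AT4G32340 made its larger step early, from 22.6 ± 6.02 to 188 ± 44.9 and then to 354 ± 48.4 (second change 0.90, adjusted p = 0.011, or 0.059 with a pseudocount of 1). COR27 made its larger step late, after a first step in which the arrays overlapped near the bottom of the scale. WLIM1, a protein that bundles actin filaments, and the aldehyde dehydrogenase ALDH10A9 continued up by less, with second changes of 0.32 and 0.39 (adjusted p = 0.0064 and 0.00081).

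Continued falls numbered 66 probe sets, 29 with a single named gene, with median changes of -0.66 and then -0.76. AT3G21670 went from 359, 377, 386 and 359 at 2 h through 236, 227, 249 and 202 to 34, 44.4, 17.8 and 30.9, with the larger part of its fall after 4 h. EXPB1, a beta-expansin, which loosens cell walls, stood at 75.3 ± 11.5, 44.4 ± 10.5 and 16.8 ± 4.45 at the 3 times, and its second change was -1.02 (adjusted p = 5.4e-06). Cytochrome c gene CYTC-2, of the mitochondrial electron transport chain, had means of 151 ± 12.97, 98.8 ± 7.01 and 39.3 ± 3.26. AFR, attenuated far-red response, a component of phytochrome A signalling, had 82.2 ± 10.8, 49.8 ± 5.25 and 31.9 ± 5.63.

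Among the locus codes of this class AT1G13650 went from 159, 181, 101 and 124 at 2 h through 86.7, 74.8, 54.6 and 59.7 to 3.34, 13.6, 1.47 and 6.23, a second change of -2.32 ± 0.21. AT3G01060 had 382, 282, 317 and 317, then 241, 203, 206 and 208, then 54.6, 55.95, 52.6 and 55.1, with little spread at 12 h. AT5G62210 and AT5G35970 fell by 1.64 and 1.60 after 4 h. These 4 genes were also picked for a lack of overlap between neighbouring times.

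Reversals after a rise were found for 29 probe sets, 18 with a single named gene, of which 22 were not called at 12 h against 2 h, 6 were lower than at 2 h and 1 was higher. Of all probe sets, 23.2% were called in that comparison, 10.8% lower and 12.4% higher. GI was among those that ended below their 2 h level, with a change of -1.90 against 2 h (adjusted p = 2.1e-11). PORB, the light-dependent enzyme that makes chlorophyllide on the way to chlorophyll, stood at 2000, 1831, 1480 and 1930 at 2 h, 2633, 2802, 3573 and 3217 at 4 h, then 1503, 1488, 1521 and 1529 at 12 h. Its rise of 0.75 (adjusted p = 0.0032) was followed by a change of -1.0 (adjusted p = 9.4e-06), and the 12 h arrays were within 50 units of each other.

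The cold-regulated genes COR15A and COR15B, whose products protect chloroplast membranes in the cold, both turned down after 4 h. COR15A had 90.8, 126, 72.8 and 116.5 at 2 h, 159, 221, 203 and 294 at 4 h, then 86.2, 60.9, 105 and 73.9 at 12 h, with changes of 1.03 and -1.31 (adjusted p = 0.007 and 5e-05). COR15B had means of 150.4 ± 27.1, 395 ± 73.4 and 204 ± 62.4. COR27, named for the same kind of response, moved the other way from 4 h to 12 h.

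NET3C, a protein that links actin to membranes, went from 19.9, 31.99, 27.5 and 19 through 44.9, 47.95, 41.5 and 41.5 to 6.57, 10.04, 11.03 and 15.9 and ended below its 2 h level, with a log2 change of -0.73 against 2 h (adjusted p = 0.00059). AT1G13930 had 1330, 1420, 984 and 1154, then 1780, 2369, 2029 and 1869, then 724, 845, 816 and 806. The beta-glucosidase BGLU25 also rose and fell, with a second change of -0.82 (adjusted p = 0.00016).

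Falls that turned into rises numbered 15 probe sets, 7 with a single named gene, and 12 of the 15 were not called between 12 h and 2 h. LHCB4.3, the third CP29 isoform, had 462, 375, 329 and 368 at 2 h, 314, 310.2, 217 and 231 at 4 h, then 593, 739, 637 and 709 at 12 h. Its first change, -0.51, only just passed the test (adjusted p = 0.045), whereas the second, 1.30 ± 0.13, had an adjusted p of 8.3e-08. TBL45, a trichome birefringence-like protein of the family that acetylates cell wall polymers, went from 340.4, 252, 252 and 237 through 204, 168, 192 and 133 to 343, 348, 361 and 319.6. The loci AT2G44210, AT2G44670 and AT4G16140 reversed by 0.73, 0.63 and 0.54, and of these AT2G44210 ended above its 2 h level (log2 change 0.35, adjusted p = 0.0016).

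A rise was held in 76 probe sets and a fall in 39. CCL, CCR-like, a gene with a strong daily rhythm, stood at 1012, 667, 688 and 713 at 2 h, 1796, 1780, 2026 and 1624 at 4 h, then 1879, 2039, 2091 and 1814 at 12 h. The 4 h and 12 h arrays overlapped, with a log2 change of 0.12 ± 0.15 (adjusted p = 0.71) after a rise of 1.24. DPE1, the plastid disproportionating enzyme that reworks maltotriose during starch breakdown, had 233, 225, 211 and 203 at 4 h, then 293, 235, 249.8 and 247 at 12 h, so that the groups did not overlap but the difference of 0.22 did not pass the test (adjusted p = 0.25).

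AT4G30650 and AT4G30660, neighbours on chromosome 4, both rose before 4 h and then held. AT4G30650 had 818, 707, 829 and 772 at 4 h, then 972, 777, 771 and 871 at 12 h, and AT4G30660 had 725, 691, 662 and 611 and 668, 530.1, 485 and 524, though AT4G30660 was called lower without replicate 1 of 12 h (adjusted p = 0.046). AT4G16146 made the largest early rise of this class among named genes, 1.74, from 41.3, 29.2, 46.2 and 41.2 at 2 h to 182, 134, 139 and 163 at 4 h, and changed by 0.21 (adjusted p = 0.52) afterwards. CHL, the chloroplast lipocalin, and WLIM2a held as well. TUB5, a beta-tubulin (adjusted p = 0.067), LCR69, also listed as the defensin PDF2.2 (0.099), and UBC20, a ubiquitin-conjugating enzyme (0.074), were in the held class, but their calls depend on the processing. TUB5 had an adjusted p of 0.031 with the replicate number as a block, LCR69 rose by 0.68 (adjusted p = 0.00011) after quantile normalization, and UBC20 reached 0.042 with array weights. Among held falls, ARR15, a response regulator that dampens cytokinin signalling, had means of 144 ± 16.5, 88.4 ± 13.99 and 99.7 ± 14.4.

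The 24 h arrays show where these genes stood at the next sampling. The classes were chosen by their values at 2, 4 and 12 h, which by itself favours a 24 h mean on the other side of the 12 h or 4 h mean, so the counts are a description and nothing is read from them. Of all 22746 probe sets, 10817 had a lower mean at 24 h than at 12 h. All 65 that continued up were lower at 24 h than at 12 h, as were 1860 of the 1967 late rises, whose earlier change was not called. All 66 that continued down were higher at 24 h than at 12 h, as were 1499 of the 1635 late falls. Of the 29 that went up then down, 21 were below their 12 h mean at 24 h, and of the 15 that went down then up, 11 were above it. Held rises were below it in 74 of 76 cases and held falls above it in 39 of 39. PWD, for example, stood at 163 ± 18.5 at 24 h, AT3G21670 at 569 ± 37.7 and CCL at 138 ± 25.4.

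Photosynthesis genes were then taken by complex. The 4 nuclear photosystem subunits with a named probe set were all lower at 12 h, against a background of 7.49% of named genes called lower. PSAN, a lumen subunit of photosystem I, fell from 2111, 2429, 2476 and 2000 to 1286, 1442, 1276 and 1181 (log2 change -0.79 ± 0.13, adjusted p = 6.2e-05), and PSAE-1, at the stromal side where ferredoxin binds, from 2781, 3533, 3309 and 2375 to 2039, 1891, 1740 and 1648 (-0.70, adjusted p = 0.005). The small photosystem II proteins PSBY and PSBW changed by -0.56 and -0.46 (adjusted p = 0.0025 and 0.042), and none of the 4 overlapped between the times, where 22.5% of all probe sets did not. The share of the signal held by the 100 strongest probe sets was also lower at 12 h, as given above. After quantile normalization, which gives all arrays the same distribution, PSAN, PSAE-1 and PSBY changed by -0.60, -0.45 and -0.33 and stayed past the threshold, while PSBW, at -0.18, did not (adjusted p = 0.30). PSBW was also not called without replicates 1, 3 or 4 of 4 h or replicates 1, 2, 3 or 4 of 12 h (adjusted p = 0.062 to 0.12).

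The 3 isoforms of the CP29 antenna protein split. LHCB4.1 fell from 3398, 4058, 4437 and 3269 to 2323, 3023, 2701 and 2411 (log2 change -0.53, adjusted p = 0.0092, but -0.17 with 0.11 after quantile normalization), LHCB4.2 fell by 1.83 and LHCB4.3 rose by 1.30. Levels of different probe sets cannot be compared on this scale, but LHCB4.2 lost most of its signal and LHCB4.3 more than doubled.

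Of 69 probe sets for plastid-encoded genes none was called in either direction, beside 19.6% of all probe sets, with a median change of -0.03 and a range of -0.43 to 0.49. No alternative called more than 1 of them higher or more than 1 lower. Among them atpB, encoding a subunit of the plastid ATP synthase, stood at 3454, 4195, 5142 and 3974 at 4 h, then 3037, 3581, 3491 and 3223 at 12 h. Nuclear factors for the plastid NDH complex, which carries cyclic electron flow, moved in both directions. CRR41 fell from 208 ± 36.3 to 105 ± 15.7 (adjusted p = 0.00076) and CRR42 rose from 66.3 ± 13.8 to 97.4 ± 8.08 (adjusted p = 0.0037). CRR21 fell by 0.34 (adjusted p = 0.031), but was not called without replicates 1 or 4 of 4 h or replicates 3 or 4 of 12 h (adjusted p = 0.058 to 0.15), and CRR22 and CRR28 were not called.

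The 3 Calvin cycle genes were not called, but their calls depend on the processing. RCA changed by -0.35 (adjusted p = 0.1), was called lower where only probe sets above the 40th or 60th percentile were tested (0.046 and 0.041), and changed by 0.00 after quantile normalization. SBPASE, sedoheptulose bisphosphatase, changed by 0.11 and PRK, phosphoribulokinase, by 0.22, but after quantile normalization SBPASE and PRK were called higher, by 0.38 and 0.54. HPR, the peroxisomal hydroxypyruvate reductase of photorespiration, rose from 1454, 1286, 1126 and 1139 to 1764, 1778, 1762 and 1642 (log2 change 0.48, adjusted p = 0.015), but was not called without replicate 3 of 4 h (adjusted p = 0.05). The other 2 photorespiration members, AT1G11860 and AT1G80380, changed by 0.14 and 0.08 and were not called, though AT1G11860 was called higher after quantile normalization, by 0.35 (adjusted p = 0.00091).

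Starch genes were few. Besides PWD and DPE1, which had risen by 4 h, the branching enzyme SBE2.2, which builds amylopectin, fell from 234, 236, 226 and 202 to 174, 160.1, 153 and 159.5 (log2 change -0.45, adjusted p = 0.047), but was not called without replicates 1, 2, 3 or 4 of 4 h or replicates 1, 2, 3 or 4 of 12 h (adjusted p = 0.05 to 0.11). APL3 and APL4, large subunits of ADP-glucose pyrophosphorylase, the entry enzyme of starch synthesis, changed by -0.29 and -0.32 (adjusted p = 0.28 and 0.073), and APL4 reached 0.049 without replicate 3 of 4 h.

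Of 6 genes linked to low sugar, 2 were called higher at 12 h, beside 9.75% of named genes, and none lower. AKINBETA1, a beta subunit of the energy-sensing kinase SnRK1, went from 240.1, 235, 245 and 177 to 523, 345, 615 and 453 (log2 change 1.06, adjusted p = 5.4e-05). MCCA, a subunit of methylcrotonyl-CoA carboxylase of leucine breakdown, went from 85.3, 64.7, 63.3 and 66.6 to 181, 101, 152 and 117.2 (0.86, adjusted p = 0.00013). Its partner subunit MCCB changed by -0.18 and was not called, and IVD and ETFQO, of the same route, changed by 0.25 and 0.33 (adjusted p = 0.43 and 0.06). ETFQO was called higher under 5 alternatives, with an adjusted p of 0.03 without replicate 2 of 4 h and 0.038 without replicate 2 of 12 h. Among sugar transporters, SWEET11, a sucrose exporter of the leaf phloem, rose from 91.2 ± 16.7 to 149 ± 20.1 and TMT1, a tonoplast sugar transporter, from 218 ± 6.999 to 299.9 ± 12.7. The vacuolar transporters SWEET16 and SWEET17 fell from 125 ± 27.8 to 66.7 ± 8.69 and from 245 ± 50.9 to 143 ± 19.1. The remaining 14 of 18 members of that list were not called, where 17.2% of all named genes were called.

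Autophagy was the list with the most rises. All 10 members measured had a higher mean at 12 h, 5 of them past the test, and none fell, with a median change of 0.38 against 0.0033 over all named genes and a background of 9.75% called higher. The 5 belong to the ATG8 family, ubiquitin-like proteins that are attached to the growing autophagosome membrane. So do all other members measured except ATG3, so the list is in the main this family. ATG8F went from 506, 422, 453 and 398 to 810, 679, 675 and 699 (log2 change 0.68, adjusted p = 0.00025), APG8H, also listed as ATG8I, from 314, 262, 283 and 247 to 426, 415, 391 and 364 (0.52) and ATG8C from 209, 167, 190 and 159.5 to 274, 261, 241 and 258 (0.49). In these 3 the 4 h and 12 h arrays did not overlap. ATG8E rose most, by 1.15 (adjusted p = 0.0032), from 213, 102, 99.2 and 90.7 to 359.6, 231, 239 and 289, with replicate 1 highest at both times, and ATG8G rose by 0.45 (adjusted p = 0.0067, or 0.057 without replicate 1 of every group). APG8A, ATG8B, ATG8D, ATG8H and ATG3, the enzyme that conjugates ATG8 to lipid, changed by 0.07 to 0.32 and were not called. APG8A was called higher where only probe sets above the 60th percentile were tested (adjusted p = 0.045). It was also called higher when the fit held the compared times alone (0.014).

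**Figure D3:**
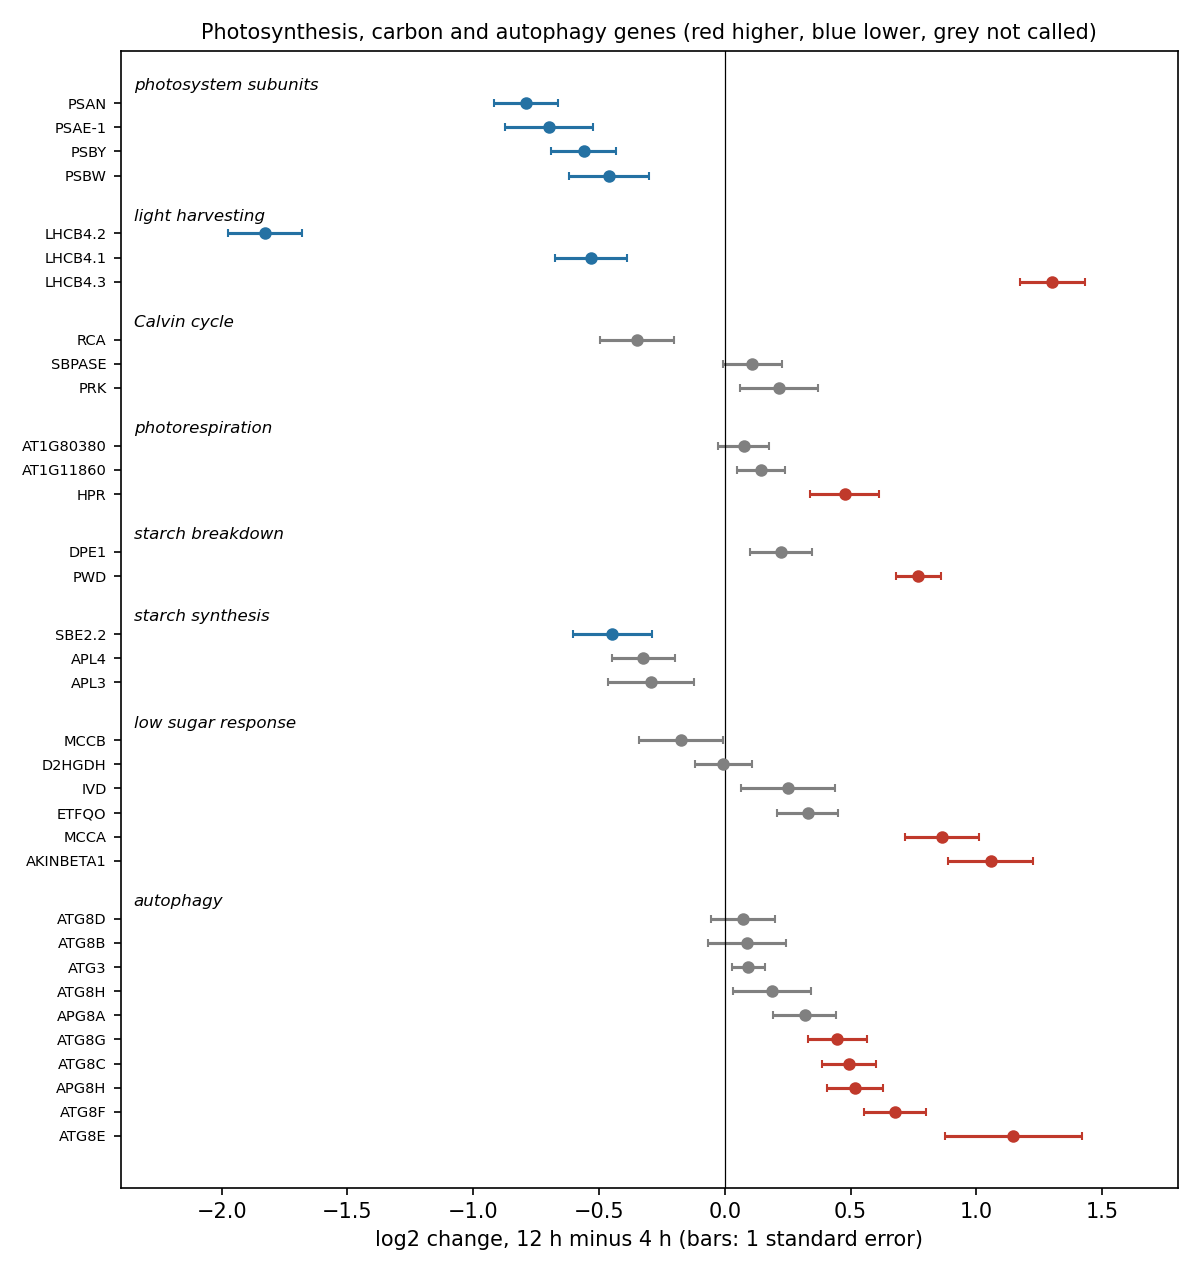
Log2 change from 4 h to 12 h (horizontal axis) for the members of 8 gene lists (vertical axis), as fitted change with 1 standard error. Red and blue mark members higher or lower at an adjusted p under 0.05 and grey those not called. The photosystem subunits lie left of 0, all autophagy members lie right of it, and the CP29 isoforms spread from -1.83 to 1.30.

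Beyond GI and CCL, the clock list held TIC, TIME FOR COFFEE, a clock and metabolism regulator, which rose late from 178, 190.3, 162 and 233 to 303, 261, 306 and 369.7 (log2 change 0.67, adjusted p = 0.002), and XCT and AT5G52660, which were not called. Its 5 members thus covered a reversal, a held rise, a late rise and 2 that did not pass the test. In chlorophyll and carotenoid synthesis PORB was the single call of 3, and CHLM, the magnesium protoporphyrin methyltransferase, and LYC, lycopene cyclase, changed by -0.20 and 0.04.

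Among 36 cell wall genes 5 were called, beside 17.2% of named genes. EXPA20, an alpha-expansin, rose from 23.4 ± 7.495 to 55.1 ± 8.68 (adjusted p = 0.014) but was not called without replicate 2 of 4 h (adjusted p = 0.055), while 4 fell. XTH32, a xyloglucan endotransglucosylase, went from 311, 289, 293 and 316 to 165, 220, 185 and 212 (log2 change -0.61, adjusted p = 2.5e-05), the alpha-expansin EXPA15 from 139.7 ± 18.7 to 88.3 ± 12.97, and the beta-expansin EXPB3 from 107 ± 20.1 to 64.9 ± 7.91, beside EXPB1 above. The median over the 36 was 0.00. PRL, or PROLIFERA, the MCM7 subunit of the helicase that licenses DNA replication, fell from 181, 233, 199.7 and 261 to 105, 115, 107 and 129.5 (log2 change -0.87, adjusted p = 3.7e-05), whereas the mitotic Aurora kinases AUR1, AUR2 and AUR3 changed by 0.00, -0.13 and 0.02 and were not called.

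STOMAGEN, a peptide from the mesophyll that promotes stomata, rose from 334, 316, 292 and 289.7 to 495, 424, 409 and 399 (log2 change 0.47, adjusted p = 0.0016). SPCH, the factor that starts the stomatal lineage, stood at 54.4, 85.4, 74.7 and 88.9 at 4 h, then 50.7, 53.5, 53.1 and 48.5 at 12 h, without overlap, but its change of -0.46 did not pass the test (adjusted p = 0.11, but 0.026 with the replicate number as a block, 0.047 without replicate 1 of 4 h and 0.013 without replicate 1 of every group). MUTE and FMA, which act later in the lineage, were not called. Of 11 auxin response genes, IAA18 rose by 0.57 (adjusted p = 5.3e-05) and IAA29, often raised in shade, fell by 0.66 (adjusted p = 0.029) but was not called without replicates 1 or 3 of 4 h or replicates 2, 3 or 4 of 12 h (adjusted p = 0.05 to 0.1). The background for the auxin genes is 17.2% of named genes called. HAT2 and EXPA8, of the shade list, changed by -0.08 and 0.02.

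The lists for nitrogen and sulfur use, flavonoids and glucosinolates had 1 call each, where 17.2% of all named genes were called. The ATP sulfurylases APS3 and APS4 and the nitrate transporter NRT2.5 changed by 0.01, 0.13 and 0.32 and were not called (NRT2.5 at 0.016 without replicate 2 of 12 h), so AT3G21670 was the single call of 4. The 6 flavonoid genes had a median log2 change of -0.56 from 2 h to 4 h and of -0.05 afterwards. The chalcone isomerase-like gene CHIL went from 197 ± 31.8 through 121 ± 26.3 to 114 ± 7.86, and UGT78D2, a flavonoid glucosyltransferase, from 166 ± 11.5 to 118 ± 14.3 and 116 ± 22.4, neither step past the test. AT1G06000 alone of the 6 continued down, from 172, 223, 147 and 215 to 84.2, 169, 116 and 122 (log2 change -0.60, adjusted p = 0.0041), with overlapping groups and an adjusted p of 0.054 when the fit held the compared times alone. BCAT4, which starts methionine-derived glucosinolate synthesis, fell by 0.79 (adjusted p = 0.017) but was not called without replicate 2 of 4 h or replicate 3 of 12 h (adjusted p = 0.055 to 0.063).

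Among stress and senescence regulators, WRKY53, a factor that promotes leaf senescence, rose from 12.2, 16.5, 16.3 and 19.2 to 32.8, 36.1, 37.6 and 27.1 and WRKY47 from 15.1, 20.01, 21.3 and 17.5 to 35.7, 38.9, 38.7 and 38.1, with changes of 0.74 and 0.75 (adjusted p = 0.0011 and 0.00071). All these values lay below the median signal of 43.93. WRKY6, WRKY20, WRKY22, WRKY42 and the senescence gene SAG101 were not called. Of 14 bZIP factors, BZIP61 and bZIP52 rose, by 0.76 and 0.31 (adjusted p = 0.048 and 0.027), where 9.75% of named genes were called higher. BZIP61 was not called without replicates 2 or 4 of 4 h or replicates 1, 2 or 3 of 12 h (adjusted p = 0.083 to 0.23), and bZIP52 not without replicates 2 or 3 of 4 h or replicates 1 or 4 of 12 h (adjusted p = 0.052 to 0.1). Lists with 1 or 2 members were also read. The heat shock protein gene Hsp70-2, NAC014 and TINY2 were not called, nor was the proteasome subunit RPN12a, while PAC, listed beside it by symbol but a protein of chloroplast development, fell by 0.49 (adjusted p = 0.0017).

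In the CYP71B group of cytochrome P450 genes, several of which lie side by side on chromosome 3, CYP71B26 fell by 2.79 while CYP71B22 rose from 186, 158, 214 and 86.2 to 266, 283, 397 and 284 (log2 change 0.94, adjusted p = 0.004) and CYP71B6 rose by 0.44 (adjusted p = 0.0017). CYP71B34 and CYP71B5 rose by 0.36 and 0.50, but CYP71B34 was not called without replicates 2 or 4 of 4 h or replicates 1 or 3 of 12 h (adjusted p = 0.064 to 0.074) and CYP71B5 not without replicates 2, 3 or 4 of 4 h or replicates 1, 3 or 4 of 12 h (adjusted p = 0.059 to 0.14). The remaining 18 of 23 were not called, where 17.2% of all named genes were called. Of 47 UDP-glycosyltransferases 4 rose and 4 fell, a share close to the 17.2% of named genes called. UGT71B1 rose most, from 82.98 ± 7.52 to 150.3 ± 28.97, and UGT88A1 fell from 577, 571, 612 and 563 to 379, 407, 360 and 363 (log2 change -0.61, adjusted p = 6.8e-06). GSTU20, a glutathione transferase, fell from 604, 526, 413 and 641 to 245, 216, 169 and 166 (-1.41, adjusted p = 5.7e-06), while GSTU16 and GSTU18 rose by 0.78 and 0.34, GSTU18 not without replicates 1, 2 or 4 of 4 h or replicates 1, 2 or 3 of 12 h (adjusted p = 0.065 to 0.13).

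For the next families the background is again 9.75% of named genes called higher and 7.49% lower. Of 20 beta-glucosidases, BGLU44, which acts on manno-oligosaccharides, fell from 1260, 1261, 1399 and 1265 to 752, 862, 608 and 775 (-0.79, adjusted p = 8.4e-05), as did BGLU25 and BGLU47, and BGLU15 rose by 0.56 (adjusted p = 0.033). BGLU47 was not called without replicate 2 of 4 h or replicate 4 of 12 h (adjusted p = 0.053 to 0.063), and BGLU15 not without replicates 1 or 3 of 4 h or replicates 2 or 4 of 12 h (adjusted p = 0.053 to 0.17). Aldehyde dehydrogenases gave 3 rises of 8, ALDH10A9, ALDH10A8 and ALDH2C4, the last from 297, 339, 341 and 293 to 479.7, 446, 445 and 411 (0.48, adjusted p = 0.00012), while ALDH10A8 was not called without replicates 1, 2 or 4 of 4 h or replicates 2, 3 or 4 of 12 h (adjusted p = 0.052 to 0.1). Among the IQD proteins, which bind calmodulin, IQD22 rose from 43.3 ± 12.2 to 112 ± 13.5 and IQD24 and IQD18 rose by 0.32 and 0.85. The size of the IQD18 rise depends on the processing, from 0.247 to 2.18 over the alternatives, though it stayed called. IQD16 fell by 0.44 but was not called without replicates 1, 2, 3 or 4 of 4 h or replicates 1, 2 or 3 of 12 h (adjusted p = 0.054 to 0.14).

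**Figure D4:**
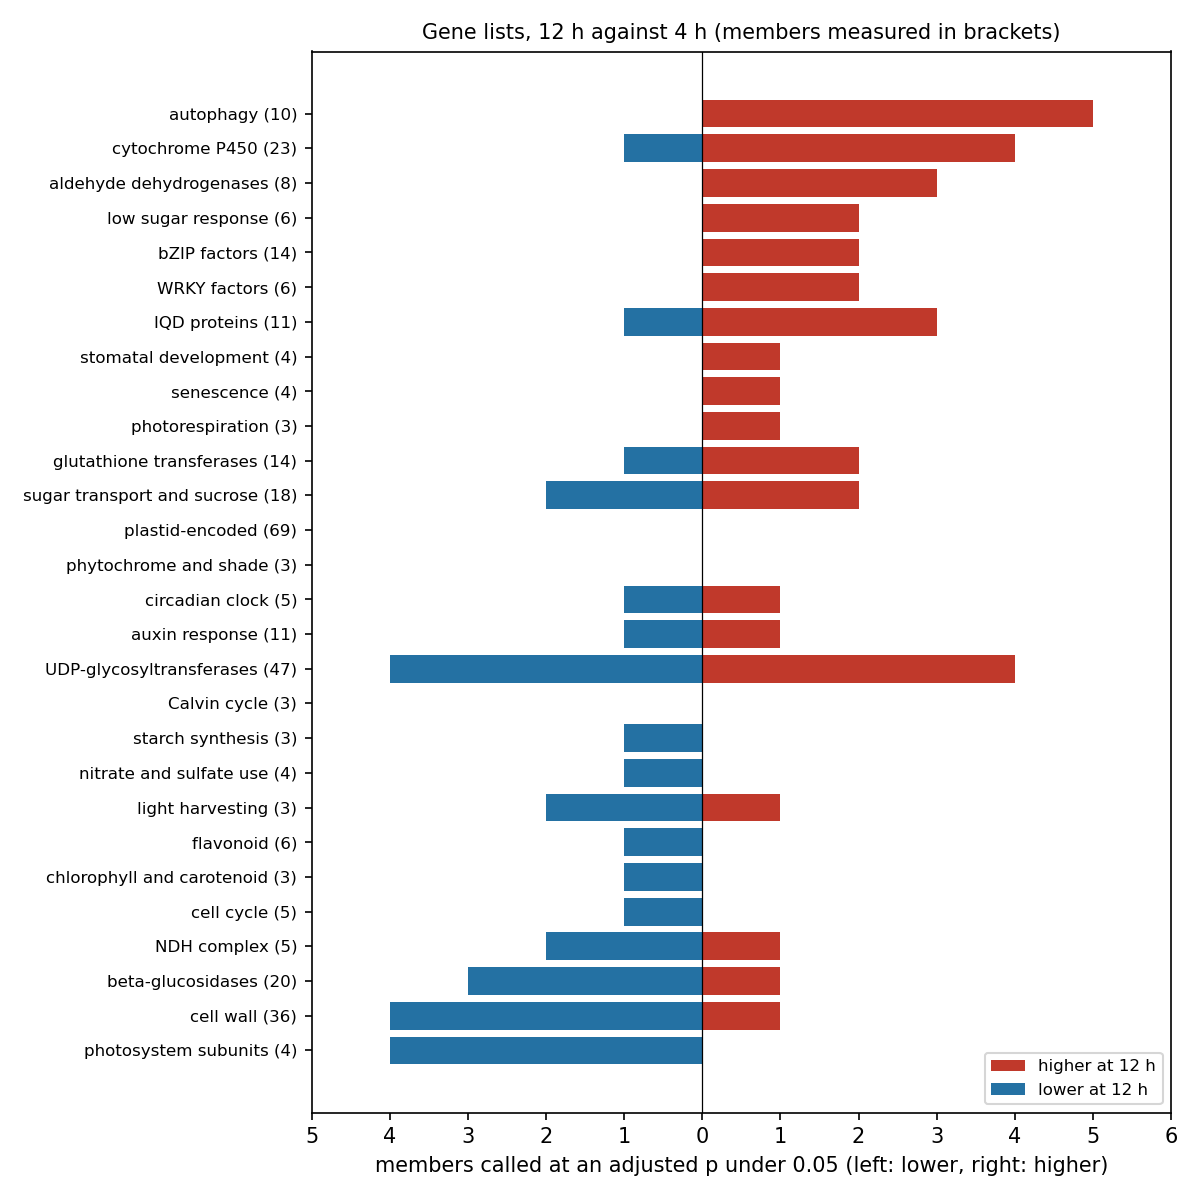
Number of members of each gene list called at an adjusted p under 0.05 between 4 h and 12 h (horizontal axis, rises to the right and falls to the left), with the number measured in brackets beside each list (vertical axis). Lists with at least 3 members are shown. Autophagy has the longest bar to the right, 5 of 10, the photosystem subunits have 4 of 4 to the left, and the plastid-encoded genes have no call among 69.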

How the data were processed

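Expression was measured on Affymetrix ATH1 arrays. For each probe set the authors deposited an intensity on a linear scale, which the submitters' processing notes name as MAS5 without a version. Each array was found to have a 2% trimmed mean of about 100. Of 22810 probe sets, 64 controls were left out and 22746 tested. The gene table names 1 gene for 13513 of them and several for 503, and 8730 have no name here. Names were matched by gene identifier to the TAIR10.1 annotation for 13436. A gene with several probe sets is represented by the one with the highest mean over the 8 arrays, and in no gene were such probe sets called in opposite directions.

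Signals were transformed as log2(signal + 10), so a log2 change understates the change of weak genes. The 26 replicates of 7 groups (developing leaves at 2, 4, 12, 24, 48 and 96 h and mature leaves at 24 h) entered 1 linear model in limma 3.58.1 under R 4.3.3, with eBayes moderation along the intensity trend and 19 residual degrees of freedom. A 24 h replicate 1 with 2 arrays entered as their mean log2 value. Tests are two-sided, with Benjamini-Hochberg adjustment over all 22746 probe sets. Replicate numbers carry over between times. Over probe sets above the 40th percentile of mean level, deviations of the same number at 4 h and 12 h correlated at 0.39, 0.15, 0.15 and 0.33, and over all probe sets at 0.31, 0.08, 0.09 and 0.19. The labels do not say what the numbers share, and the fit with the replicate number as a block is an alternative.

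The steps were tested on simulated data with known changes. The number of arrays limits the precision. The genes named are the 14 largest rises and falls that passed the test with 1 gene. Both needed no overlap and a mean above the median signal of 43.93 in the higher group. To these were added the 5 largest second changes of each continued or reversed class, among genes without overlap in both contrasts. The 4 held genes had the largest first changes, without overlap between 2 h and 4 h. In these classes the highest mean of the times compared had to exceed the same median. Up to 4 members of each list were also named. Further class and list members were picked after their values were seen. The comparison and the gene lists were chosen with earlier results of these data known. Lists for ribosomes, trehalose, MYB factors, aquaporins, ABC transporters and calcium kinases had no named probe set, and the light-harvesting list held only LHCB4 isoforms. Alternatives were other pseudocounts, filters, scalings, weights, sets of arrays, moderation and each replicate left out. A planned search of promoters for motifs was not run, since no promoter table is used here.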

Additional observations from a re-analysis of the deposited data

Results flagged for a closer look

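In 28 of 396 groups of 4 arrays examined among the named genes, the highest or lowest array stood apart, its gap to the next divided by the range of the group being above Dixon's 95% critical value for 4 values. Chance alone gives about 1 in 20 such groups. At 4 h the highest array stood apart for AT3G19030 (0.948), GI (0.977), AT3G01060 (0.861), MCCA (0.83), ETFQO (0.835), ATG8E (0.864), bZIP19 (0.882), BGLU44 (0.965), BGLU42 (0.844) and ALDH6B2 (0.864), and the lowest for AKINBETA1 (0.874), Hsp70-2 (0.929), THIC (0.842) and WLIM2a (0.835). At 12 h the highest stood apart for AT2G23910 (0.854), AT5G44580 (0.941), AT2G44210 (0.847), AT1G11860 (0.889) and CYP71B22 (0.833), and the lowest for HPR (0.883), APS3 (0.876), HAT3.1 (0.953), PME61 (0.906), FMA (0.846), BGLU42 (0.896), BZIP61 (0.958), IVD (0.886) and IQD18 (0.984). For GI the array concerned was replicate 1 at 188.9 beside 172.5, 172.2 and 172.2, so the ratio reflects 3 nearly equal arrays. For ATG8E it was again replicate 1, at 213 beside 102.2, 99.21 and 90.71.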

How the results depend on the processing

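The counts called at 12 h against 4 h stayed within 1.5 times under every alternative run, from 3706 to 4907, and between 3610 and 4431 of the 4466 calls were called in the same direction wherever all probe sets were tested. Quantile normalization turned the sign of 2 of them, neither called there. No scaling moved the median change by more than 0.1, and the share of falls among calls ran from 44.6% to 49.1%. With the replicate block 4826 probe sets were called, and the classes held 76 continued rises, 89 continued falls, 41 and 21 reversals; it moved no count of calls by over 1.5 times and, of the genes named, changed the call of SPCH and TUB5 alone. Without replicate 1 of every developing group, chosen after seeing the data, 4235 were called. At least 2-fold counts depend on the pseudocount by construction, with 383 rises and 408 falls at 1 and 62 and 104 at 50, and the filter at the 60th percentile, which tests fewer probe sets, left 112 rises. Small classes moved more, and the cause was not tested. A pseudocount of 50 gave 51 up then down and 2 and 3 unresolved after a rise and a fall; the 60th percentile filter gave 10 unresolved rises. With only the compared times in the fit, which leaves fewer arrays, 186 were called at 4 h against 2 h, and the classes held 36 continued falls, 19 up then down, 3 down then up, 46 and 20 held and 5 unresolved rises. The 2, 4 and 12 h arrays alone gave 6 down then up and 8 unresolved rises. Holding within 2-fold left 0 and 2 unresolved. Leaving out single arrays gave 17 to 39 up then down (17 without replicate 2 of 4 h, 18 without replicate 1 of 2 h), 8 to 18 down then up (8 without replicate 1 of 2 h), 24 to 45 held falls (25 and 24 without replicates 1 and 3 of 2 h), 16 to 39 unresolved rises (39 and 37 without replicates 1 and 3 of 12 h) and 8 to 21 unresolved falls (19 without replicate 3 of 4 h, 21 without replicate 2 of 12 h). Of 113 named genes called, 89 were called under every alternative run, 24 lost the call under at least 1, and 16 of 85 not called gained one. None changed sign while called. These counts are of 12 h against 4 h alone, and the class of each named gene was not followed under the alternatives. The motif search and its other window were not run. Weak genes lie near the floor of the scale, where changes are not well measured.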

Other observations

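The serine carboxypeptidase-like genes were noticed in the data as a family, after their values were seen, and are given here as a description. Of 29 members with a named probe set, 7 were called higher at 12 h than at 4 h and 0 lower, where 9.75% of named genes were called higher. Besides SCPL49 and scpl35, which continued up, scpl46 rose from 42.1 ± 13.7 at 4 h to 117.1 ± 26.8 at 12 h (log2 change 1.30, adjusted p = 9.8e-06) after 62.5 ± 5.45 at 2 h. SCPL45 went from 129 ± 15.5 to 202 ± 23.6, SCPL34 from 37.9 ± 3.39 to 59.97 ± 13.1, scpl25 from 276 ± 39.6 to 336 ± 26.9 and scpl16 from 5.202 ± 5.52 to 18.4 ± 3.896. Their adjusted p-values were 0.041, 0.048, 0.031 and 0.0013. SCPL45 was not called without replicates 1, 2 or 3 of 4 h or replicates 2, 3 or 4 of 12 h (adjusted p = 0.062 to 0.11), SCPL34 not without replicates 1, 2, 3 or 4 of 4 h or replicates 1, 2 or 4 of 12 h (adjusted p = 0.056 to 0.14) and scpl25 not without replicates 2 or 3 of 4 h or replicates 1, 2 or 4 of 12 h (adjusted p = 0.059 to 0.15).

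The array titled 4 h replicate 1 whose note carries the letters ES was put in no group. On it GI read 195, COR27 7.81, CCL 1777, PORB 2823, AT3G21670 176 and LHCB4.2 2563. Not every named gene was that near its 4 h values. AT5G62210 read 63.6 beside 132.4 to 286.3 at 4 h, COR15A 105.3 beside 159.1 to 293.6 and TBL45 256 beside 132.7 to 203.5. The difference between this array and the 4 h group was not tested.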
